A study of Mus musculus with 3 samples.

Results

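The transcripts described here encode nuclear-encoded subunits of the mitochondrial respiratory chain in mouse embryonic stem cells. The 40 members were taken by their Entrez gene numbers from a fixed list of complex I, II, III and IV genes and cytochrome c, without use of their values, and are 40 of the 17997 genes listed in any library. They comprise 14 subunits of the peripheral arm of complex I, 11 of its membrane arm, 4 of complex II, 6 of complex III, cytochrome c and 4 of complex IV. All 40 were listed in all 3 libraries.

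The study sequenced total RNA of the 46C line (strain 129, a line that carries a green fluorescent reporter at Sox1), grown with serum and LIF on gelatin. Each library comes from a transfected culture: the empty vector (PB) at passage 2 after transfection, lef1 (PB-Lef1) at passage 2, or lef1 at passage 5. They are named here by vector and passage, as empty vector P2, Lef1 P2 or Lef1 P5. Their expected counts summed to 9225401, 9170554 and 9380813 in that order. Neither the promoter that drives lef1 nor whether the cultures were clones is given in the sources used here. There is 1 library per group and nothing measures the spread between cultures, so no test between groups was made. Values for a gene are given in the order empty vector P2, Lef1 P2, Lef1 P5, in FPKM (fragments per kilobase, corrected for library depth). Ratios are plain ratios of FPKM, and parentheses hold 95% intervals from the read counts (exact binomial), which cover counting error only.

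The respiratory chain passes electrons from NADH and succinate to oxygen in the inner mitochondrial membrane. Complex I takes electrons from NADH and complex II from succinate, ubiquinone carries them to complex III, and cytochrome c carries them on to complex IV, where oxygen is reduced. Complexes I, III and IV pump protons, and ATP synthase uses the resulting gradient. Most subunits are encoded in the nucleus and a small set in mitochondrial DNA, and embryonic stem cells are known for relying strongly on glycolysis. Nuclear respiratory factor 1 (NRF1) is a transcription factor known for binding the promoters of many of these genes, cytochrome c among them.

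In Lef1 P2, 31 of the 40 transcripts were lower than in empty vector P2 on the deposited scale, with a median log2 ratio of -0.19. Beside them 40.4% of all genes and 63.6% of strongly expressed genes (30 FPKM or more in every library) were lower. The membrane arm of complex I and complex IV had the lowest medians of the complexes on that scale. In Lef1 P5 most were close to empty vector P2, with complex II slightly lower and Cycs higher. No member reached a 1.5-fold difference from empty vector P2 in either Lef1 library on the deposited scale. In Lef1 P2, 8.03% of the genes tested were lower and 17.5% higher by that size, and in Lef1 P5, 5.95% were lower and 4.31% higher. In both comparisons that use Lef1 P2, the median of strongly expressed genes lay close to that of the members and in the same direction. The values of those comparisons thus describe the respiratory chain without setting it apart. For Lef1 P5 against empty vector P2 the medians differed in sign, at -0.07 for the members and 0.02 for strongly expressed genes. There 28 of the 40 members lay below the latter. Under quantile normalisation the members' median for Lef1 P2 against empty vector P2 was -0.07 and complex III lay on the other side of 0.

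The upstream sequences of 3 members are shown because these members mark the range of the data: Cycs and Ndufa6 were the only members past 1.5-fold in any comparison on the deposited scale, in opposite directions, and Sdhb had the lowest ratio of complex II in Lef1 P5. They were chosen after their values were seen, from the 5 members whose promoter holds the NRF1 letters GCATGCGC on either strand. Each stretch is the 120 bases just before the RefSeq transcription start on GRCm38.p6, read 5′ to 3′ on the gene's strand, with the NRF1 letters in capitals. The stretches lie at chr6:50566570-50566689 for Cycs (minus strand), chr15:82354292-82354411 for Ndufa6 (minus strand) and chr4:140961151-140961270 for Sdhb (plus strand).
Cycs: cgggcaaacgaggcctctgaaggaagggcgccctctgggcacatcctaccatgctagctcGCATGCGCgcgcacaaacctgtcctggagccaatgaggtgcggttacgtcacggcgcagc
Ndufa6: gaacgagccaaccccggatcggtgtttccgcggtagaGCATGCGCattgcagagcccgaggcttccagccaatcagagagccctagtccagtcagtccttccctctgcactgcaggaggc
Sdhb: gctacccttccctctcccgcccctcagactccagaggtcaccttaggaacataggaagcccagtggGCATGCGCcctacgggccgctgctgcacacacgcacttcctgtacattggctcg
The capitals begin 60 bases before the start in Cycs, 83 in Ndufa6 and 54 in Sdhb. All 3 hold the same letters because they were chosen from the members that do. Their different orders over the libraries were known when they were chosen. The 3 therefore cannot show whether the letters go with the levels.

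Of the 40 members, 31 matched an entry of the RefSeq promoter table, whose windows run from 250 bases before to 50 bases after the start. A gene was counted if any of its windows held the letters. The NRF1 letters GCATGCGC occurred in 5 of the 31 members (16.1%: Ndufa6, Ndufa8, Sdhb, Uqcrc1 and Cycs). Beside them stood 3.05% of all genes in the table and 6.08% of expressed genes. The YY1 letters AAGATGGCG occurred in 4 (12.9%), beside 1.64% of all and 3.58% of expressed genes. ETS letters CCGGAAG were present in 5 (16.1%), beside 9.93% of all and 20.2% of expressed genes. The LEF1/TCF letters CTTTGAT were found in 1 member, Ndufa5 (3.23%), beside 4.29% of all and 3.005% of expressed genes. The ERR letters TCAAGGTCA were found in 1, Sdhd (3.23%), beside 0.466% and 0.340%. Both strands were searched. A match is a description of these letters and not a binding site.

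The peripheral arm of complex I holds the flavin and the iron-sulfur clusters that carry electrons from NADH to ubiquinone. Ndufv1, which binds the flavin and oxidises NADH, was at 98.5, 72.8 and 87.3 FPKM. Ndufs1, the large subunit that holds several iron-sulfur clusters, was at 64.4, 48.3 and 61.9 FPKM. Ndufv2, another iron-sulfur subunit of the same module, was at 52.7, 52.7 and 53.0 FPKM. On the deposited scale Ndufv1 and Ndufs1 were lowest in Lef1 P2, outside the counting intervals of the other libraries. Their partner Ndufv2 was level across the libraries on that scale only. With median-of-ratios or TMM scaling the interval of its ratio of Lef1 P2 to empty vector P2 lay below 1.

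Closer to the ubiquinone site, Ndufs3, a core subunit without a cluster, was at 58.0, 58.7 and 54.8 FPKM. Ndufs7, which holds the last cluster before ubiquinone, was at 72.7, 66.2 and 74.5 FPKM. Ndufs8, which holds a pair of clusters, was at 55.5, 66.2 and 69.2 FPKM. The intervals of Ndufs3 and Ndufs7 overlapped between libraries on the deposited scale. Ndufs8 was higher in both Lef1 libraries, at 1.19 (1.04 to 1.37) times empty vector P2 in Lef1 P2 and 1.248 (1.09 to 1.43) times in Lef1 P5, the highest P5 ratio of this arm. Its P2 interval included 1 with median-of-ratios or TMM scaling.

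Among the accessory subunits of this arm, Ndufa7 was the most abundant, at 245, 246 and 209 FPKM. On the deposited scale it was level between the P2 libraries. It was lower in Lef1 P5, at 0.853 (0.782 to 0.932) times empty vector P2, the lowest ratio of the arm in that comparison. With median-of-ratios or TMM scaling its P2 interval also lay below 1. Ndufs6, which holds a zinc ion and is needed late in assembly, was at 126, 86.6 and 119 FPKM. It was low in Lef1 P2 alone, at 0.686 (0.600 to 0.784) times empty vector P2, and Lef1 P5 was at 1.37 (1.20 to 1.57) times Lef1 P2. Ndufa6, a small LYR-motif protein of the matrix side, did the reverse, at 125, 168 and 108 FPKM. It was high in Lef1 P2, at 1.35 (1.21 to 1.505) times empty vector P2, and Lef1 P5 lay at 0.640 (0.571 to 0.717) times Lef1 P2.

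Ndufa9, which stabilises the junction of both arms, was at 78.9, 59.6 and 73.9 FPKM and so was lowest in Lef1 P2. Ndufv3, a small accessory subunit of the NADH module, was at 102, 123 and 107 FPKM. Scaled to the library total alone, its reads in Lef1 P5 were 1.17 times those of empty vector P2, and its FPKM 1.051 times. The length given for its 2 transcripts, by which FPKM divides, was 679 bases in Lef1 P5 and 619 and 620 in the others. Ndufs4, whose loss is a known cause of complex I deficiency, was at 38.2, 35.2 and 34.0 FPKM. Ndufa2, which has a thioredoxin-like fold, was at 80.6, 71.3 and 83.1 FPKM and Ndufa5, a helical subunit of the matrix side, at 40.04, 37.3 and 46.0 FPKM. Counting intervals overlapped between all libraries for Ndufs4, Ndufa2 and Ndufa5 on the deposited scale. The values of Ndufa2 and Ndufa5 were lowest in Lef1 P2, but the intervals of their ratios to empty vector P2 included 1 there on the deposited scale.

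The membrane arm of complex I carries the proton pumps, whose core is encoded in mitochondrial DNA, so all 11 members here are accessory. Ndufb8, the most abundant of them, was at 164, 134 and 124 FPKM. Ndufb9, an LYR-motif protein, was at 112, 123 and 107 FPKM. Ndufa3, a small single-pass subunit, was at 86.8, 68.4 and 98.5 FPKM. Ndufb8 was higher in empty vector P2 than in either Lef1 library and Ndufa3 was lowest in Lef1 P2 on the deposited scale. Intervals against empty vector P2 included 1 for Ndufb9 in both Lef1 libraries.

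Ndufb2, a small subunit of the distal part of the arm, was at 61.6, 41.8 and 60.9 FPKM. Ndufb10, a cysteine-rich subunit of the same region, was at 73.9, 51.8 and 68.6 FPKM. Ndufa10, which resembles nucleoside kinases, was at 83.2, 58.6 and 79.8 FPKM. All 3 were low in Lef1 P2 and close to empty vector P2 in Lef1 P5.

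The remaining 5 subunits of this arm lay between 42.9 and 82.5 FPKM. Ndufa1, needed early in assembly of the arm, was at 75.9, 65.8 and 71.3 FPKM. Ndufa8, a cysteine-rich subunit facing the intermembrane space, was at 55.0, 42.9 and 51.8 FPKM. Ndufb7, of the same cysteine-rich type, was at 73.2, 61.8 and 74.3 FPKM. These 3 were lowest in Lef1 P2, though the interval of Ndufa1 against empty vector P2 included 1 on the deposited scale. Ndufb3, a small single-pass subunit, was at 82.5, 71.5 and 66.4 FPKM and Ndufb5, of the same type, at 56.1, 61.1 and 59.2 FPKM. Ndufb3 was lower in Lef1 P5, at 0.805 (0.688 to 0.942) times empty vector P2, whereas the intervals of Ndufb5 overlapped throughout.

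Within the membrane arm, the ratio of Lef1 P2 to empty vector P2 ran from 0.678 (0.548 to 0.838) for Ndufb2 to 1.10 (0.987 to 1.23) for Ndufb9. Lef1 P5 against empty vector P2 ran from 0.755 (0.682 to 0.835) for Ndufb8 to 1.14 (0.949 to 1.36) for Ndufa3. Lef1 P5 against Lef1 P2 ran from 0.864 (0.772 to 0.967) for Ndufb9 to 1.46 (1.18 to 1.80) for Ndufb2. On the deposited scale the interval of Lef1 P2 against empty vector P2 lay below 1 for 7 of the 11 and above 1 for none. Beside them stood 27.2% and 41.0% of the genes tested and 51.5% and 26.9% of the strongly expressed ones. It lay below 1 for 9 with median-of-ratios or TMM scaling, beside 38.4% and 38.1% of the genes tested. The shares of the strongly expressed genes were then 67.5% and 67.2%. With quantile normalisation it lay below 1 for 4, beside 34.4% of the genes tested and 43.5% of the strongly expressed ones. It then lay above 1 for 2, beside 31.7% and 33.2%.

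**Figure D1:**
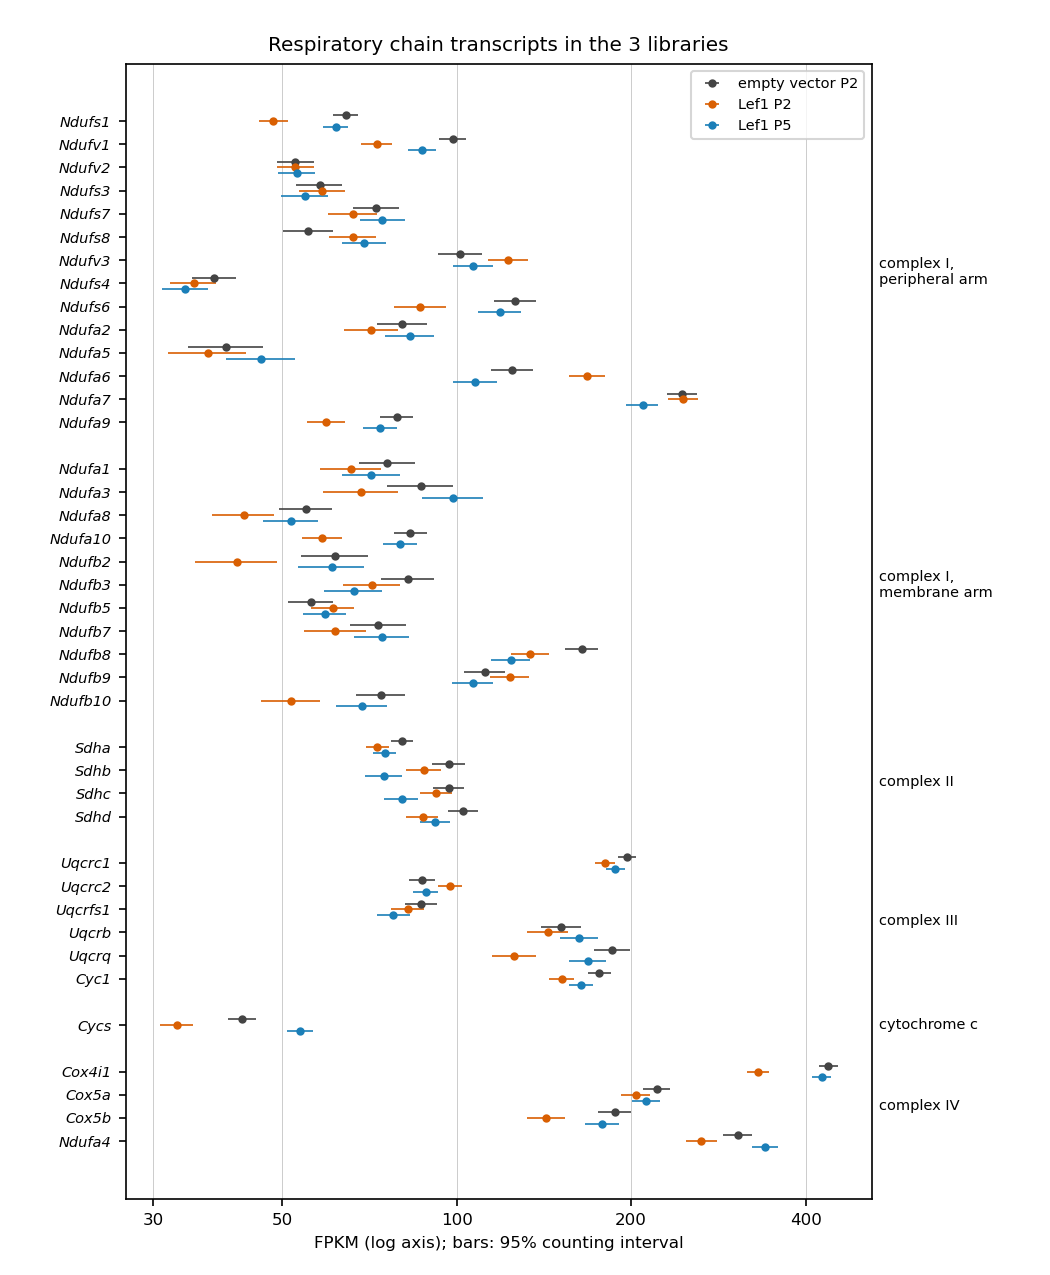
FPKM of each of the 40 members in the 3 libraries on a log axis, grouped by complex, with 95% counting intervals as bars. Complex II lies in a narrow range near 73.0 to 103 FPKM, Cox4i1 is highest at 331 to 438 FPKM, and Lef1 P2 is the lowest of the 3 points for 25 of the 40 members.

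Complex II is succinate dehydrogenase, which also works in the citric acid cycle, and all its subunits are nuclear. Sdha, the flavoprotein that oxidises succinate, was at 80.6, 73.0 and 75.1 FPKM. Sdhb, the iron-sulfur subunit, was at 96.8, 87.7 and 74.96 FPKM. Sdhc and Sdhd, the membrane anchors that bind ubiquinone, were at 96.9, 92.2 and 80.3 FPKM and 103, 87.3 and 91.9 FPKM. The 4 transcripts were of similar abundance, the highest being 1.27, 1.26 and 1.23 times the lowest in the 3 libraries.

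All 4 were lower in both Lef1 libraries than in empty vector P2 on the deposited scale, with Sdhc on the other side at P2 after quantile normalisation. In Lef1 P2 the ratios ran from 0.851 (0.781 to 0.927) for Sdhd to 0.952 (0.870 to 1.04) for Sdhc. In Lef1 P5 they ran from 0.774 (0.701 to 0.854) for Sdhb to 0.932 (0.876 to 0.991) for Sdha, and all 4 intervals lay below 1, as did 27.9% of those of the genes tested. With TMM or quantile scaling 3 of the 4 intervals lay below 1, beside 25.3% of the genes tested with quantile. With median-of-ratios 2 did (Sdhb and Sdhc), beside 23.4%. Between the Lef1 libraries the ratios ran from 0.855 (0.773 to 0.945) for Sdhb to 1.052 (0.964 to 1.15) for Sdhd. The iron-sulfur subunit and Sdhc were thus lowest at passage 5 on the deposited scale, though their intervals between the Lef1 libraries included 1 with median-of-ratios or TMM scaling, and Sdha and Sdhd at passage 2, within counting error. The complex II median in Lef1 P5 stayed below empty vector P2 under all 5 scalings, between -0.22 and -0.17 on the log2 scale, but 4 genes in 1 library give no measure of the spread between cultures.

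Complex III passes electrons from ubiquinol to cytochrome c. Uqcrc1 and Uqcrc2, the large core proteins of the matrix side, were at 197, 180.3 and 188 FPKM and 87.1, 97.5 and 88.5 FPKM. They followed different orders: Uqcrc2 was highest in Lef1 P2, at 1.12 (1.04 to 1.20) times empty vector P2, and Lef1 P5 was at 0.908 (0.846 to 0.974) times Lef1 P2, while Uqcrc1 was at 0.916 (0.869 to 0.966) times empty vector P2 in Lef1 P2. With median-of-ratios or TMM scaling both intervals of Uqcrc2 included 1, and with quantile normalisation the P2 interval of Uqcrc1 lay above 1. Uqcrfs1, the Rieske iron-sulfur protein, was at 86.8, 82.4 and 77.8 FPKM. Cyc1, the cytochrome that hands electrons to cytochrome c, was at 176, 152 and 164 FPKM. Uqcrfs1 had the lowest ratio of the complex in Lef1 P5, 0.896 (0.818 to 0.980) times empty vector P2, and Cyc1 was lowest in Lef1 P2.

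The small subunits of complex III also differed among themselves. Uqcrb, a ubiquinone-binding protein, was at 152, 144 and 163 FPKM, and its Lef1 P5 ratio to empty vector P2 of 1.07 (0.961 to 1.20) was the highest of the complex. Uqcrq, a small membrane subunit, was at 185, 126 and 168 FPKM. It had the lowest ratio in Lef1 P2, 0.679 (0.606 to 0.760) times empty vector P2, and the highest between the Lef1 libraries, 1.34 (1.19 to 1.501) times. The other 5 members of the complex had ratios between 0.862 and 1.12 in Lef1 P2 on the deposited scale.

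Cycs encodes somatic cytochrome c, the soluble carrier between complexes III and IV that also triggers apoptosis when released. It was at 42.7, 32.9 and 53.7 FPKM, so it was lowest in Lef1 P2 and highest in Lef1 P5, with no overlap of counting intervals. Lef1 P2 was at 0.771 (0.706 to 0.841) times and Lef1 P5 at 1.26 (1.17 to 1.36) times empty vector P2, and Lef1 P5 at 1.63 (1.502 to 1.77) times Lef1 P2. Cycs was the only member whose expected counts were not whole numbers. Cytochrome c has many processed pseudogenes, so reads may be shared with other loci and its level is less certain than the rest. The counts of the other 39 were whole within 0.005 reads.

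Complex IV reduces oxygen to water, and its catalytic core is mitochondrially encoded. Cox4i1, the ubiquitous isoform of the regulatory subunit IV, was the most abundant member, at 438, 331 and 427 FPKM. Cox5a, which binds it on the matrix side, was at 222, 204 and 212 FPKM, and Cox5b, which holds a zinc ion, at 187, 143 and 178 FPKM. Ndufa4, named as a complex I subunit and now known as a subunit of complex IV, was at 306, 264 and 340.5 FPKM. All 4 were lowest in Lef1 P2 on the deposited scale, although quantile normalisation put Cox5a and Ndufa4 above empty vector P2 there.

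In Lef1 P2 the complex IV ratios to empty vector P2 ran from 0.757 (0.715 to 0.801) for Cox4i1 to 0.920 (0.850 to 0.995) for Cox5a. In Lef1 P5 they ran from 0.9499 (0.865 to 1.04) for Cox5b to 1.11 (1.031 to 1.20) for Ndufa4, and Cox4i1 was at 0.975 (0.925 to 1.028). Between the Lef1 libraries they ran from 1.04 (0.962 to 1.13) for Cox5a to 1.29 (1.19 to 1.398) for Ndufa4. Summed over the 4 transcripts, Lef1 P2 was at 0.818 times and Lef1 P5 at 1.00 times empty vector P2.

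Set together, the 40 transcripts summed to 4617, 4069 and 4424 FPKM. They took 0.392% (exact Poisson 95% interval 0.388 to 0.396), 0.344% (0.340 to 0.348) and 0.377% (0.374 to 0.381) of the counts of the libraries. Lef1 P2 was the lowest library for 25 members, Lef1 P5 for 10 and empty vector P2 for 5. Among the 2342 genes at 30 FPKM or more in every library, a group that includes all 40 members and was chosen after the data were seen, Lef1 P2 was lowest for 54.3%, against 62.5% of the members. With TMM rescaling (trimmed mean of M values) these shares were 70.5% and 80.0%, and with quantile normalisation 46.8% and 45.0%. In bulk RNA, fewer cells of a type and less RNA per cell cannot be told apart.

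For Lef1 P2 against empty vector P2, the median log2 ratio of the members (with 1 FPKM added to each value) was -0.19, and 31 of 40 (77.5%) lay below 0, beside 40.4% of all genes and 63.6% of the strongly expressed ones. The median of all 12894 genes at 1 FPKM or more in any library was 0.11, and that of the 2342 strongly expressed genes was -0.13, with 24 members below it and 16 above. No member was past 1.5-fold, where 8.03% of the 10651 genes tested were lower and 17.5% higher by that size. A gene was tested at 3 FPKM and 20 reads or more in the higher library, and all 40 members were. The counting interval lay below 1 for 22 members, beside 27.2% of the genes tested and 51.5% of the strongly expressed ones. It lay above 1 for 4 (Ndufs8, Ndufv3, Ndufa6 and Uqcrc2), beside 41.0% and 26.9%. These counts depend on the scaling. With median-of-ratios and with TMM, 32 intervals lay below 1, beside 38.4% and 38.1% of the genes tested and 67.5% and 67.2% of the strongly expressed ones. Then 1 lay above 1, that of Ndufa6, while those of Ndufs8, Ndufv3 and Uqcrc2 included 1. With quantile normalisation 12 of 40 members lay below 1, beside 34.4% of the genes tested and 43.5% of the strongly expressed ones, and 9 lay above 1, beside 31.7% and 33.2%. The members' share of lower intervals was thus above that of all genes on the deposited scale and below it with quantile normalisation.

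By complex, the median log2 ratio in this comparison was -0.11 for the peripheral arm, -0.29 for the membrane arm, -0.14 for complex II, -0.10 for complex III and -0.30 for complex IV. Complex III was at 0.06 under quantile normalisation, and the medians of both arms and of complexes II and IV stayed below 0. The interval lay below 1 for 4 and above 1 for 3 of the 14 peripheral-arm subunits, or 28.6% and 21.4%. Beside them stood 27.2% and 41.0% of the genes tested and 51.5% and 26.9% of the strongly expressed ones. The 6 core subunits of complex I among the members had a median of -0.07, which turned to 0.02 with quantile normalisation, and the 19 accessory ones -0.20. With median-of-ratios or TMM scaling, which moved the median of all genes from 0.11 to -0.03 and -0.02, 6 members were past 1.5-fold and lower (Ndufv1, Ndufs6, Ndufa10, Ndufb2, Ndufb10 and Uqcrq) and none higher. That is 15.0% of the members, beside 13.4% and 13.3% of the genes tested and 22.5% and 22.2% of the strongly expressed ones. Under both, 36 of 40 members lay below 0, with Ndufv2, Ndufs3, Ndufa7, Ndufb5 and Ndufb9 changing side. With quantile normalisation 1 member, Ndufa6, was past it and higher, and 25 of 40 lay below 0, with Sdhc, Uqcrc1, Uqcrfs1, Uqcrb, Cox5a and Ndufa4 changing side.

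**Figure D2:**
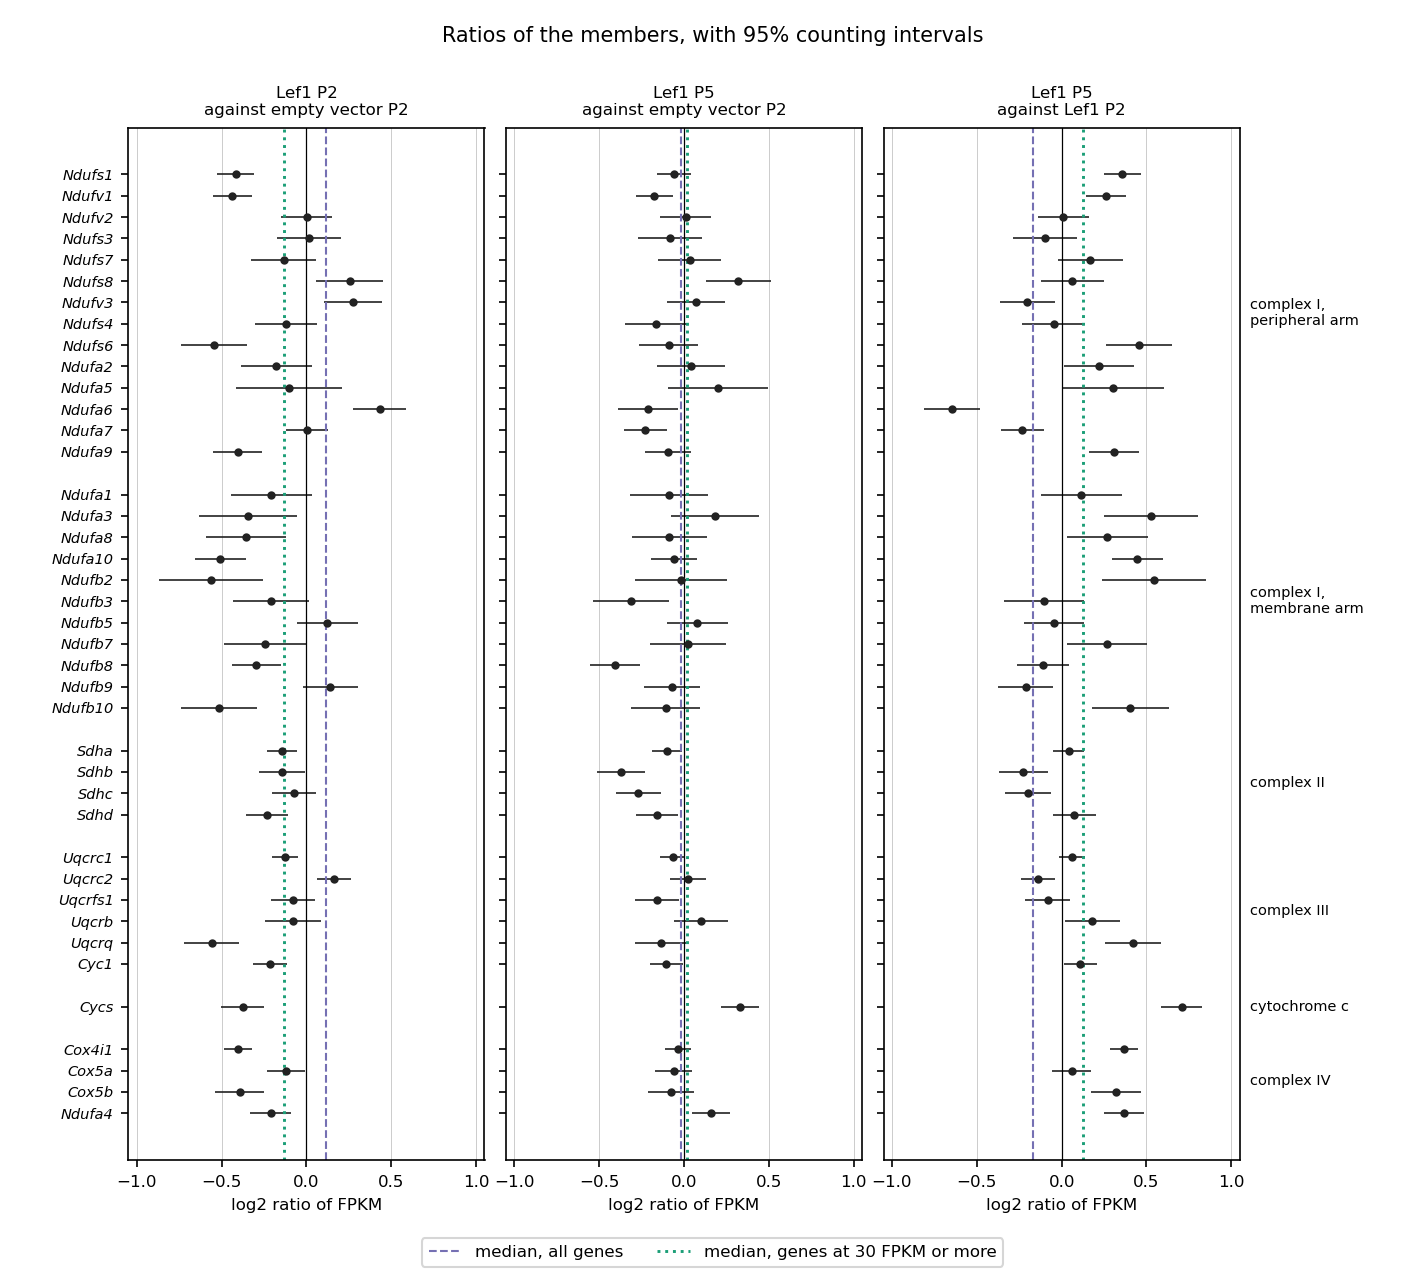
Log2 ratio of FPKM of each member in the 3 comparisons, with 95% counting intervals as bars, and the medians of all genes (dashed) and of genes at 30 FPKM or more (dotted). In the left panel 31 of 40 points lie below 0, in the middle panel they gather near it, and in the right panel Cycs and Ndufa6 stand farthest out; left and right panels share the Lef1 P2 library.

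For Lef1 P5 against empty vector P2, where passage and lef1 cannot be told apart, the members' median log2 ratio was -0.07. The median of all genes was -0.02 and that of strongly expressed genes 0.02, and 28 members lay below the latter. Again no member was past 1.5-fold, while 5.95% of the 10121 genes tested were lower and 4.31% higher. The counting interval lay below 1 for 11 members, beside 27.9% of the genes tested and 27.9% of the strongly expressed ones. It lay above 1 for 3 (Ndufs8, Cycs and Ndufa4), beside 23.1% and 32.4%, but that of Ndufa4 included 1 with quantile normalisation. The members with lower intervals were Ndufv1, Ndufa6, Ndufa7, Ndufb3, Ndufb8, the 4 of complex II, Uqcrfs1 and Cyc1, a share close to the background. With median-of-ratios 6 were lower (15.0%, beside 23.4% of the genes tested), and with quantile normalisation 14 (35.0%, beside 25.3%). By complex the medians were -0.07 for each arm of complex I, -0.21 for complex II, -0.08 for complex III and -0.05 for complex IV.

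For Lef1 P5 against Lef1 P2, the members' median log2 ratio was 0.11 on the deposited scale and -0.02 after quantile normalisation. The median of all genes was -0.17 and that of strongly expressed genes 0.13. Below 0 lay 13 of 40 members, 4 with median-of-ratios, 6 with TMM and 21 with quantile scaling. Cycs was past 1.5-fold and higher, beside 7.98% of the 10593 genes tested, and Ndufa6 was past it and lower, beside 20% (2116 genes). With median-of-ratios scaling Ndufa6 was no longer past it and 7 members were higher (Ndufs6, Ndufa3, Ndufa10, Ndufb2, Ndufb10, Uqcrq and Cycs), or 17.5%, beside 15.0% of the genes tested and 28.9% of the strongly expressed ones. The counting interval lay above 1 for 19 members, beside 25.8% of the genes tested and 51.3% of the strongly expressed ones. It lay below 1 for 7, beside 44.9% and 28.9%. With median-of-ratios or TMM, 27 lay above 1, beside 38.4% and 36.9% of the genes tested and 69.1% and 67.6% of the strongly expressed ones, and 1 below. With quantile normalisation 10 lay above 1, beside 33.6% and 43.2%, and 12 below, beside 33.6% and 35.4%. By complex the medians were 0.11 for the peripheral arm, 0.26 for the membrane arm, -0.08 for complex II, 0.08 for complex III and 0.34 for complex IV. Complex II turned to 0.12 with median-of-ratios and 0.10 with TMM scaling, and complex III to -0.15 with quantile normalisation. Each comparison shares a library with each of the others, so their values are given side by side and not as support for one another.

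**Figure D3:**
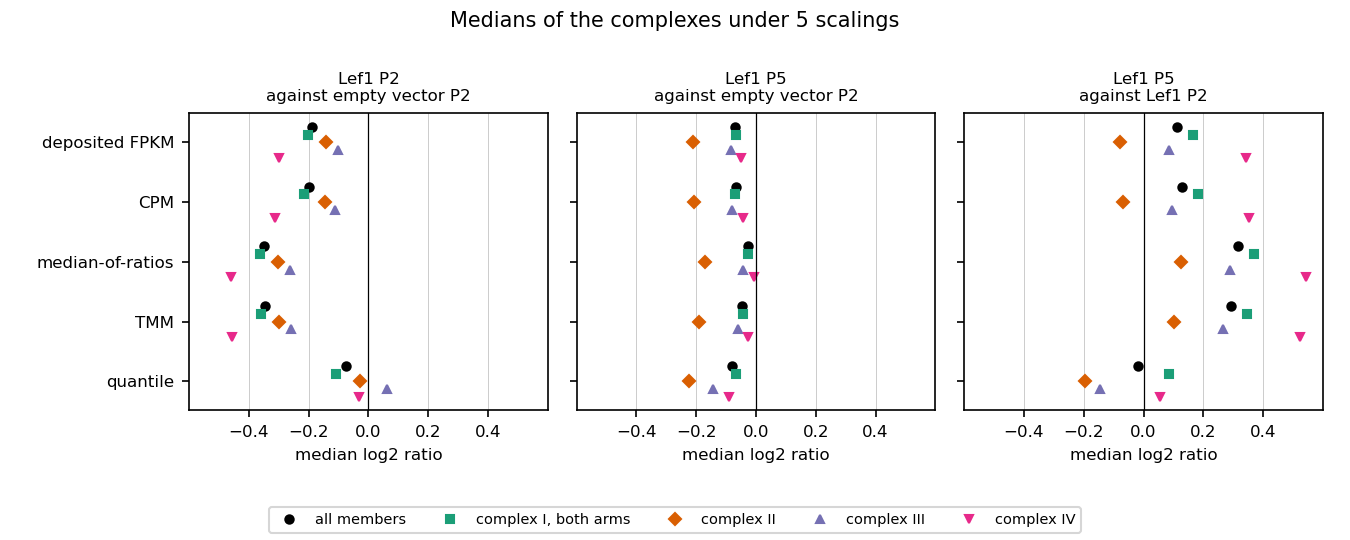
Median log2 ratio of all members and of 4 complexes in the 3 comparisons under 5 scalings (rows). Complex II stays left of 0 in the middle panel in all rows, and complex III crosses 0 in the quantile row of the left and right panels.

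The 25 other subunits of complexes I to IV listed in the tables, from a list of 28, had medians of -0.14, -0.06 and 0.02 in the same 3 comparisons, the last turning to -0.11 with quantile normalisation. Cox4i2, the isoform of subunit IV linked to low oxygen, was at 2.76, 8.05 and 1.90 FPKM, from 17, 49 and 12 reads. It was 2.92 times (1.65 to 5.40) as high in Lef1 P2 as in empty vector P2, while its abundant counterpart Cox4i1 was lower. Cox7a1, the isoform known from heart and muscle, was at 14.6, 24.5 and 22.4 FPKM, 1.68 times (1.14 to 2.49) empty vector P2 in Lef1 P2 and 1.54 times (1.04 to 2.28) in Lef1 P5. These were the 2 past 1.5-fold at P2 on the deposited scale, and both were higher. That is 8% of the 25, beside 17.5% of the genes tested. With median-of-ratios or TMM scaling 1 was past it and higher and 5 lower, where 13.4% and 13.3% of the genes tested were lower. Cox7a2l, which helps join complexes into supercomplexes, was lower in Lef1 P5 at 0.662 times Lef1 P2, and Uqcr11, a small complex III subunit, was higher at 1.52 times. None of the 13 subunits encoded in mitochondrial DNA was listed in any library, so they were not analysed here.

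ATP synthase, which uses the gradient the chain builds, had a lower median than the chain in Lef1 P2 against empty vector P2. Its list of 16 genes, which includes the inhibitor Atpif1, had a median of -0.43 in Lef1 P2 against empty vector P2. The median was 0.08 in Lef1 P5 against empty vector P2 and 0.47 between the Lef1 libraries. At P2, 3 (18.75%) were past 1.5-fold and lower, beside 8.03% of the genes tested and 11.5% of the strongly expressed ones. None was higher. With median-of-ratios or TMM 8 were lower, beside 13.4% and 13.3% of the genes tested and 22.5% and 22.2% of the strongly expressed ones. With quantile scaling 2 were lower. Atp5l, a membrane subunit, was at 281 FPKM with the empty vector and 157 in Lef1 P2, 0.558 times. Atp5g1, which encodes the ring subunit c, was at 163, 92.2 and 189 FPKM, 0.567 times in Lef1 P2. Between the Lef1 libraries 6 (37.5%) were past 1.5-fold and higher, beside 7.98% of the genes tested and 15.2% of the strongly expressed ones. Atp5g1 at 2.05 times and Atp5j2 at 1.88 times led them. The number was 11 with median-of-ratios or TMM and 2 with quantile scaling. With median-of-ratios 15.0% of the genes tested and 28.9% of the strongly expressed ones were higher by that size. No test compared ATP synthase with the chain.

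The mitochondrial ribosome, which translates the mitochondrially encoded subunits, had medians of -0.26, 0.02 and 0.27 over 72 genes. At P2, 8 (11.1%) were past 1.5-fold and lower, beside 8.03% of the genes tested and 11.5% of the strongly expressed ones. Mrps6, of the small subunit, was at 0.532 and Mrpl20, of the large subunit, at 0.574 times empty vector P2. Under median-of-ratios or TMM scaling 16 were lower, beside 22.5% and 22.2% of the strongly expressed genes. Between the Lef1 libraries 13 (18.1%) were past it and higher, beside 7.98% of the genes tested and 15.2% of the strongly expressed ones. Mrpl20 was at 2.07 and Mrps6 at 1.89 times. The number was 27 with median-of-ratios, beside 15.0% and 28.9%, and 24 with TMM scaling. The cytosolic ribosome, over 78 genes, had medians of 0.08, 0.08 and -0.03, but with median-of-ratios or TMM scaling the first turned to -0.08 and the last to 0.18 and 0.15. Its only member past 1.5-fold at P2 on the deposited scale was Rpl30, which was lower. The list for the citric acid cycle also holds genes of pyruvate metabolism that lead into it (Pdha1, Pdhb, Dlat, Pcx, Pdk1 and Pdk3). It had medians of -0.09, -0.13 and -0.02 over 20 genes, with none past 1.5-fold against empty vector P2 on the deposited scale. With median-of-ratios or TMM scaling 4 of the 20 were past it and lower at P2, beside 13.4% and 13.3% of the genes tested. The last median then turned to 0.18 and 0.15, while quantile normalisation turned the P2 median to 0.01. Malate dehydrogenase Mdh2 was at 1.59 times Lef1 P2 in Lef1 P5 and Dlst, a subunit of the oxoglutarate dehydrogenase complex, at 0.623 times.

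Assembly factors, which build the complexes without staying in them, lay close to 0 as a group on the deposited scale. Their medians were -0.01, -0.04 and 0.04, and of 39 tested at P2, 2 were higher and 3 lower past 1.5-fold. That is 5.13% and 7.69%, beside 17.5% and 8.03% of all genes tested, so the counts do not set this list apart. The P2 median was -0.15 with median-of-ratios and TMM and -0.14 with quantile scaling, with 28 of 40 below 0 in each, and the median between the Lef1 libraries was 0.22, 0.20 and 0.18. Cox18, which inserts a complex IV subunit into the membrane, was at 21.8, 41.7 and 18.0 FPKM, 1.91 times empty vector P2 in Lef1 P2. Sdhaf4, an assembly factor of complex II, was at 1.59 times. Ecsit at 0.592 and Ndufaf2 at 0.608 times, both factors of complex I assembly, were the lowest. None of these factors was past 1.5-fold in Lef1 P5 against empty vector P2. In Lef1 P5 against Lef1 P2, the complex I assembly factor Tmem126b was at 1.80 times and Lrpprc, which binds mitochondrial messenger RNA, at 1.65 times. Cox18 was at 0.432 and Ndufaf7, a methyltransferase for a complex I subunit, at 0.482 times.

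**Figure D4:**
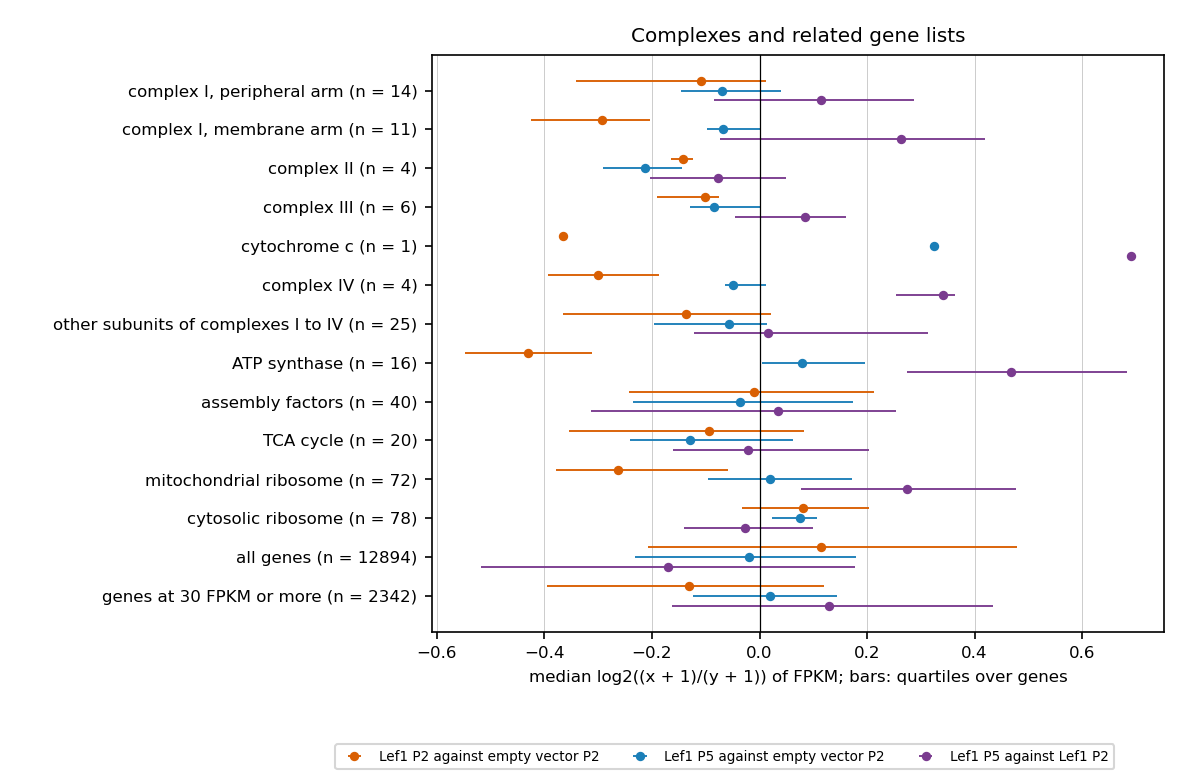
Median log2 ratio over the genes of each complex and each related list in the 3 comparisons, with bars from the first to the third quartile over genes, which are not replicates. ATP synthase at -0.43 and the mitochondrial ribosome at -0.26 lie left of 0 in Lef1 P2 against empty vector P2, the cytosolic ribosome at 0.08 lies right of it (at -0.08, left of it, with median-of-ratios or TMM scaling), and genes at 30 FPKM or more lie at -0.13.

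Of the regulators of respiratory genes, 17 of 20 were tested at P2. Myc, a transcription factor known for driving growth and mitochondrial genes, was at 15.4, 4.10 and 14.4 FPKM and was the only regulator past 1.5-fold there. It was lower, which is 5.88% of the regulators tested, beside 8.03% of all genes tested. Nrf1 was at 19.6, 18.3 and 22.4 FPKM. Ppargc1a, a coactivator of mitochondrial gene expression, stood at 0.02 FPKM with the empty vector and was not listed in the Lef1 libraries. In Lef1 P5, Myc was past the threshold and higher than in Lef1 P2, and Polg, the mitochondrial DNA polymerase, was at 0.617 times Lef1 P2. Whether the level of Myc bears on the members was not tested.

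Lef1 was at 1.49, 135 and 214 FPKM, which follows the labels. Defining embryonic stem cell genes were present in all libraries, their 9 markers summing to 6342, 5648 and 6203 FPKM, of which Dppa5a made up 3771, 3818 and 3816. Pou5f1, at 1135, 704 and 1062 FPKM, and Utf1, at 394, 203 and 297 FPKM, were past 1.5-fold and lower in Lef1 P2 than in empty vector P2, at 0.620 and 0.514 times. The 15 primitive endoderm markers summed to 280, 2187 and 650.1 FPKM, with 15 of 15 past 1.5-fold and higher in Lef1 P2 than in empty vector P2. The primitive endoderm markers were thus highest in the library where most members were lowest on the deposited scale. Pou5f1 and Utf1 were lowest there, but the 9 stem cell markers did not move as 1. On the deposited scale 6 were lower and 3 higher in Lef1 P2 than in empty vector P2, with Tfcp2l1 at 1.49 times. Klf4 was lowest in Lef1 P5. The part of these markers in the result was not tested. The 8 fibroblast markers summed to 18.5, 12.8 and 8.20 FPKM, with Postn and Lum listed in no library, and the 5 neural markers to 39.1, 19.2 and 26.5 FPKM.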

How the data were processed

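RNA-seq of total RNA gave 1 gene table for each of 3 libraries. The submitters' processing notes name Bowtie 0.12.2 and mm8. Which program counted the reads, with what strand setting and with what treatment of reads matching several genes, was not given in the sources used here. The authors deposited, per the file headers, an expected count, an FPKM value and a transcript length for each Entrez gene. FPKM was used as deposited, and a gene not listed was taken as 0. Names came from RefSeq, where 17951 of 17997 numbers matched.

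The ratio was log2((x + 1)/(y + 1)) of FPKM, with 1.5-fold as the threshold and at least 3 FPKM and 20 reads in the higher library. With 1 library per group there was no test. Intervals were exact Poisson for levels and for shares of the library counts, and exact binomial for ratios, at 95%. They cover counting error only, with each read taken as independent. Amplified reads carry no molecular identifiers and can stem from the same molecule, so the intervals can be too narrow even for counting error. All 40 members are given with their levels, and ratios for the member of highest mean FPKM and those of highest and lowest ratio in each complex and comparison. Of other lists, up to 2 highest and 2 lowest past 1.5-fold are named. Other names and the 3 promoters were chosen after their values were seen. The members and lists were chosen with earlier results of these data known. Promoter sequences are RefSeq's on GRCm38.p6. The coordinates in the files' mm8 build are not used here.

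Alternatives were other pseudocounts, minimums and thresholds, counts scaled to the library total (CPM), median-of-ratios, TMM (edgeR 4.0.16) and quantile scaling of FPKM. Scripts used Python 3.11.15, pandas 2.3.3 and scipy 1.17.1 and were tested on simulated data.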

Additional observations from a re-analysis of the deposited data

How the results depend on the processing

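The members' median log2 ratio of Lef1 P2 against empty vector P2 was -0.19 on deposited FPKM and moved to -0.35 with both median-of-ratios and TMM scaling, and was -0.07 with quantile scaling. That of Lef1 P5 against Lef1 P2 was 0.11 and moved to 0.31 with median-of-ratios and 0.29 with TMM scaling, and was -0.02 with quantile scaling. Members past the threshold in Lef1 P2 against empty vector P2 numbered 0, but 14 at a lower log2 threshold of 0.32 (1 higher and 13 lower), 6 with median-of-ratios, 6 with TMM and 1 with quantile scaling. In Lef1 P5 against empty vector P2 they numbered 0, and 3 at that lower threshold. In Lef1 P5 against Lef1 P2 they numbered 2, but 11 at it, 0 at 2-fold, 7 with median-of-ratios and 6 with TMM scaling. Shares of all genes at the lower threshold are not given here, so its counts do not set the members apart. For Lef1 P2 against empty vector P2 the first quartile was -0.37 for the members, -0.21 for all genes and -0.39 for the strongly expressed ones. For Lef1 P5 against Lef1 P2 the third quartile was 0.33, 0.18 and 0.43 in that order. Median-of-ratios and TMM multiply every gene of a library by 1 factor, so they move all genes alike; the cause of the other moves was not tested. Relative to all genes the P2 median was -0.30, and -0.32 with either rescaling, but -0.05 with quantile scaling and -0.06 relative to the strongly expressed genes. Of 120 member comparisons, 46 moved beyond their counting error with TMM, 52 with median-of-ratios, 26 with quantile scaling, 1 with CPM and 0 with other pseudocounts. No paired analysis was possible because each group has 1 library and the labels give no replicate numbers. For the same reason no library could be left out. Depth limits weak genes such as Cox4i2 more than the members.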
